A study of Mus musculus with 14 samples.

Results

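The genes described are those that encode the proteins of the mitochondrial ribosome. They were chosen by name as the rows of the deposited expression tables whose symbol starts with Mrpl (large subunit) or Mrps (small subunit) followed by a digit. The rule found 79 of 22255 rows. Of these, 48 are by symbol protein-coding genes of the large subunit and 29 of the small subunit, and 2 are processed pseudogenes, Mrpl23-ps1 and Mrps36-ps1. Mrpl33 was not analysed here. The 79 lie on 17 chromosomes, and chromosome 11 holds 11 of them (GENCODE M21 on GRCm38).

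Mitochondrial ribosomes translate the few messenger RNAs of the mitochondrial genome, which encode core subunits of the respiratory chain and of ATP synthase. Their ribosomal RNAs, 12S in the small subunit and 16S in the large, are transcribed inside the organelle from mt-Rnr1 and mt-Rnr2. Every ribosomal protein is in contrast encoded in the nucleus, made in the cytosol and imported, so each ribosome joins products of both genomes. Symbols follow an older naming, and the proteins of Mrps18a and Mrps30 sit in the large subunit in spite of their names. The product of Mrps36 is also known as a component of the 2-oxoglutarate dehydrogenase complex. All counts, sums, medians and figures by subunit follow the symbol, so Mrps18a, Mrps30 and Mrps36 stand with the small subunit. Regulatory T cells (Tregs), the cells sorted here, are CD4 T cells that express the transcription factor Foxp3, restrain immune responses and rely in good part on mitochondrial respiration.

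The study profiled Foxp3-YFP+ Tregs of 8-week-old mice by Smart-Seq2 RNA sequencing of low-input total RNA, in 14 libraries. Tregs of the spleen (4 libraries), of lymph node (LN, 4 libraries) and of Yumm1.7 melanoma tumors (WT tumor, 3 libraries, numbered 2 to 4) came from the strain given as FoxP3-YFPCre+/+. The KO tumor group (3 libraries) came from Yumm1.7 tumors in the strain CD36floxed FoxP3-YFPCre+/-, with the genotype given as CD36 KO. All 4 groups thus carry the Foxp3-driven YFP-Cre allele, and the strains of the tumor groups differ in the floxed allele and in how the Cre allele is written (+/+ or +/-), which cannot be told apart. The stated comparisons are those among Tregs of spleen, LN and tumor, and of WT against KO tumor. KO tumor against Spleen and against LN differ in tissue and strain together. The labels do not say that libraries of a group came from separate animals, so p-values measure the spread between these libraries, which may be technical.

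Depth, estimated from the steps between low values, was 10.7 to 21.4 M reads per library and 18.3 to 21.4 M in LN. It is the smallest depth at which the low values come out as whole reads, and a multiple of it in any library would make them whole too. The order of the libraries by depth is therefore not certain. Cd36, the targeted gene, was listed at 0 FPKM (fragments scaled to transcript length and library depth) in all 3 WT tumor libraries and in KO tumor 1 and 3, and at 1.06 FPKM in KO tumor 2, so its values do not check the genotype. It was also listed at 0 in all 4 LN libraries and in Spleen 1, and at 0.598, 4.47 and 2.17 FPKM in Spleen 2, 3 and 4. Foxp3 was present in every library, at 8.67 to 27.8 FPKM in Spleen, 15.4 to 32.3 in LN, 3.54 to 11.97 in WT tumor and 25.7 to 42.4 in KO tumor. All 9 Treg or T cell markers, Foxp3 and Cd4 among them, were above 1 FPKM in every library. Markers of other cells moved with the groups. Summed over 11 macrophage or monocyte markers, the level was 271 to 711 FPKM in Spleen, 4.04 to 36.1 in LN, 1.18 to 107 in WT tumor and 306 to 415 in KO tumor, with Cd14 listed at 0 in all libraries of Spleen, LN and KO tumor, and Adgre1 and Cd68 in those of WT tumor. The 5 erythroid markers summed to 2969 to 7079 FPKM in Spleen, 79.0 to 1190.0 in LN, 225 to 11899 in WT tumor and 63.3 to 16427 in KO tumor, and none was at 0 in all libraries of a group. The 7 B cell markers summed to 63.1 to 273, 49.7 to 73.4, 6.30 to 99.7 and 16.3 to 56.6 FPKM in the same order, again with none at 0 throughout. The 6 CD8 T or NK cell markers summed to 8.61 to 66.8 FPKM in Spleen, 0.110 to 5.54 in LN, 21.5 to 63.2 in WT tumor and 12.2 to 34.4 in KO tumor, with Ncr1 listed at 0 in all libraries of the last 3 groups. Markers of dendritic cells, neutrophils and fibroblasts or endothelium summed to at most 24.7, 1.92 and 17.8 FPKM. Melanoma markers summed to at most 3.73 FPKM in any library, and Mlana, Tyrp1, Dct and Sox10 were listed at 0 in every library. The part of any of these cells in the results below was not tested.

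Levels of the ribosomal protein genes were spread over several orders of magnitude. Of the protein-coding genes, 7 averaged over 100 FPKM (mean of the 4 group means), 46 averaged 10 to 100 and 24 under 10. The median was 22.6 FPKM over the large subunit genes and 21.3 over the small subunit genes. In all 14 libraries, 41 genes reached at least 1 FPKM and 18 at least 10, while 17 were listed at 0 in at least 1 library. Since FPKM is scaled to transcript length, these levels can be set side by side, although 5′ to 3′ coverage and the transcript chosen by the authors' software also enter them.

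The most abundant of the family was Mrpl52, which encodes a large subunit protein found in mitochondrial but not bacterial ribosomes and ranked 121st by mean level among all 22255 rows. It stood at 879, 729, 852 and 690.1 FPKM in Spleen, at 881, 1112, 757 and 714 in LN, at 1186, 496 and 698 in WT tumor and at 824, 861 and 723 in KO tumor. The groups overlapped throughout, and this 1 gene made up 23.8 to 40.6% of the summed FPKM of the large subunit in each library. Next in the large subunit were Mrpl30 (216 FPKM on average over the groups), Mrpl54 (200.4) and Mrpl20 (164). Mrpl30 and Mrpl20 encode relatives of bacterial ribosomal proteins, and Mrpl54 another protein specific to mitochondria. The order of these 3 was not fixed: their group means ran from 153 ± 38.7 (WT tumor) to 279 ± 57.1 (KO tumor) for Mrpl30, from 93.7 ± 48.3 (LN) to 348 ± 218 (WT tumor) for Mrpl54 and from 122 ± 66.4 (Spleen) to 189 ± 27.6 (WT tumor) for Mrpl20 (SD, n = 3 or 4), so neighbours in the order did not differ beyond their spread.

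In the small subunit Mrps21, a relative of a bacterial ribosomal protein like the next 3, led with 578, 316, 314 and 264 FPKM in Spleen, 432, 234, 339 and 339 in LN, 393, 419.5 and 336 in WT tumor and 244, 315 and 379 in KO tumor. All groups overlapped, and Spleen 1 stood above every other library. Mrps24 (189.9 FPKM on average over the groups), Mrps16 (141) and Mrps15 (97.5) followed. At the other end were Mrpl1 (0.466 FPKM), Mrps2 (1.22) and Mrps18b (2.65), the last listed at 0 in 9 libraries. Mrpl53 was listed at 0 in all 14 libraries. A listed 0 need not mean little RNA in these tables, since mt-Co2, mt-Atp6 and mt-Atp8, which every respiring cell uses, were also listed at 0 in all 14. Mrpl1, which encodes the protein of the mobile stalk beside the exit site for transfer RNA, never passed 1.61 FPKM. Ribosomes hold most of their proteins in equal number, and these levels describe RNA, not ribosome composition. The heat map of library values shows this steep order and the patchy lower part.

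**Figure D1:**
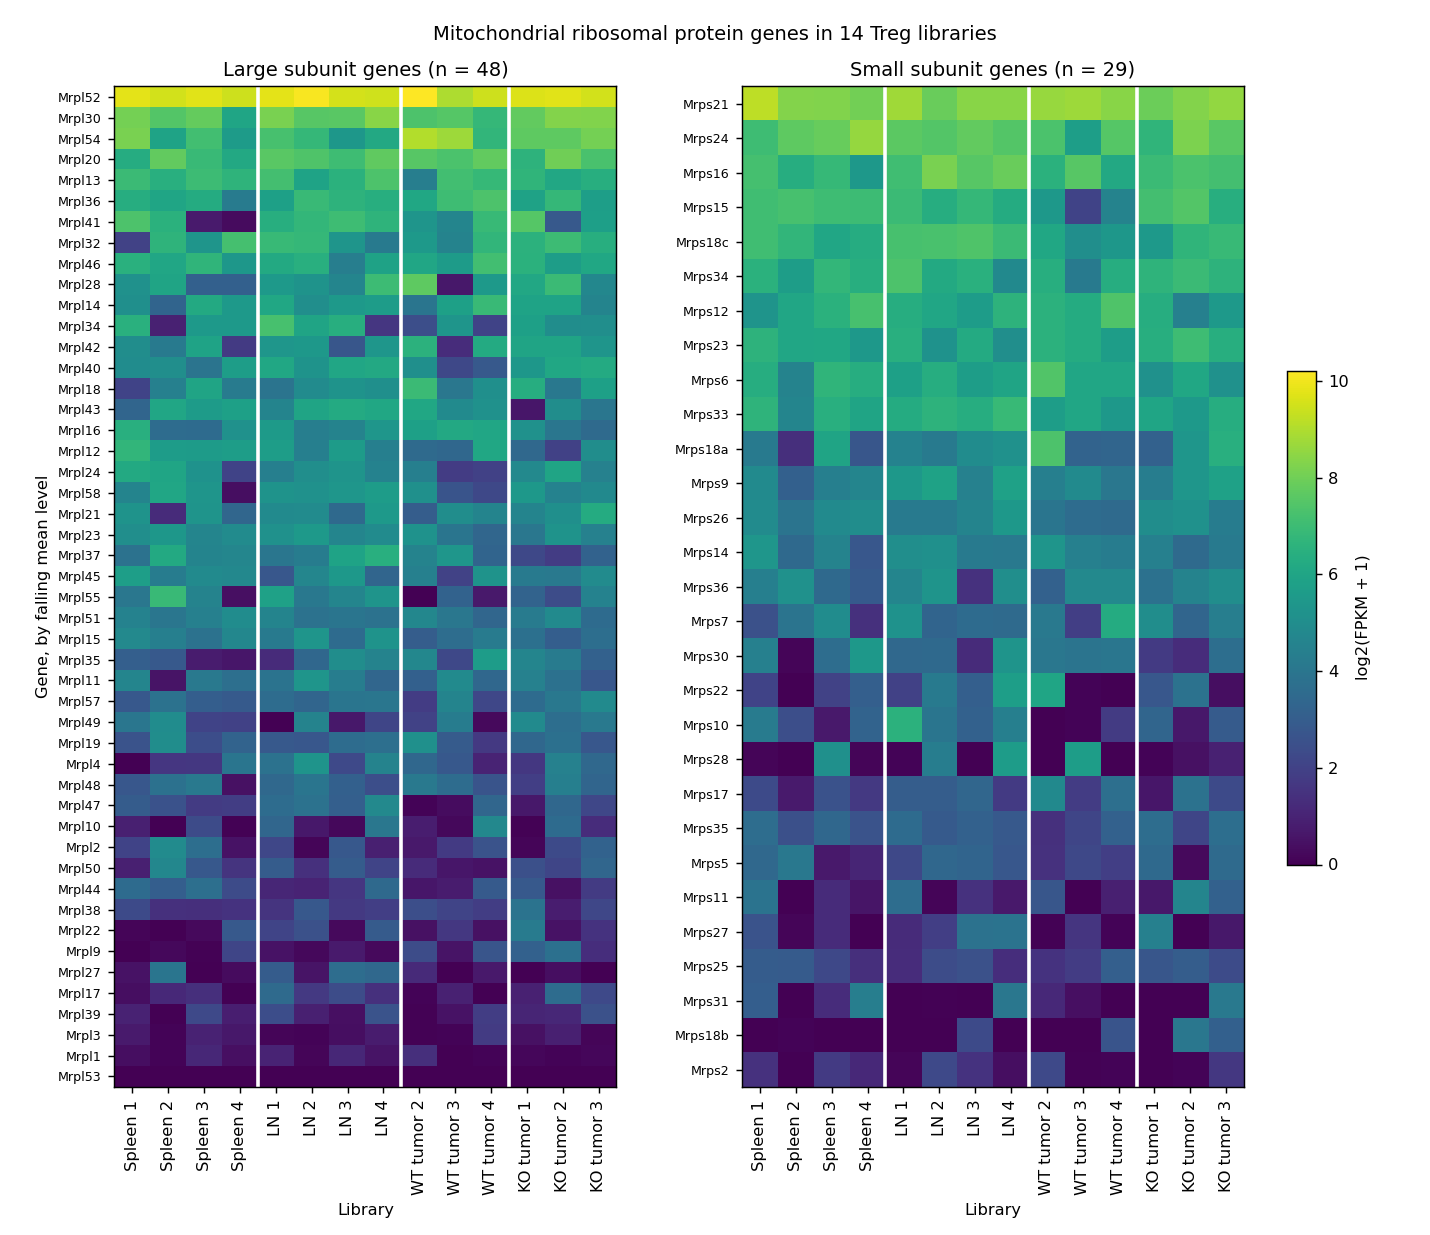
Level of each protein-coding gene of the large (48) and small (29) subunit in the 14 libraries, as log2(FPKM + 1). Genes are ordered by falling mean level and white lines part the groups. Mrpl52 and Mrps21 are high in every library, and many genes further down are near 0 in single libraries whose replicates reach 10 FPKM or more.

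Summed over each subunit, FPKM overlapped between all groups. The large subunit summed to 2332 ± 455 FPKM in Spleen (SD, n = 4), 2665 ± 252 in LN (n = 4), 2581 ± 564 in WT tumor (n = 3) and 2617 ± 167 in KO tumor (n = 3). The small subunit summed to 1504 ± 236, 1649 ± 132, 1359 ± 239 and 1479.5 ± 243 FPKM in the same order. Library values ran from 1701 (Spleen 4) to 3195 (WT tumor 2) for the large and from 1177 (WT tumor 3) to 1819.8 (LN 1) for the small subunit, and each pair of groups overlapped in both sums. The ratio of the large to the small sum was 1.57 ± 0.367 in Spleen, 1.62 ± 0.143 in LN, 1.89 ± 0.103 in WT tumor and 1.80 ± 0.313 in KO tumor. Other measures parted LN from WT tumor. The small subunit made up 0.291 to 0.349% of all FPKM in LN libraries and 0.198 to 0.276% in WT tumor. The median over the large subunit genes was 16.5 to 23.7 FPKM in LN and 8.92 to 15.7 in WT tumor. The large subunit share (0.453 to 0.545% and 0.350 to 0.542%) and the small subunit median (13.3 to 32.3 and 11.4 to 20.2 FPKM) overlapped. These sums, shares and medians carry no test, since the genes were chosen with earlier results of these data known. In bulk libraries such as these, fewer cells expressing a gene and less RNA per cell cannot be told apart.

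**Figure D2:**
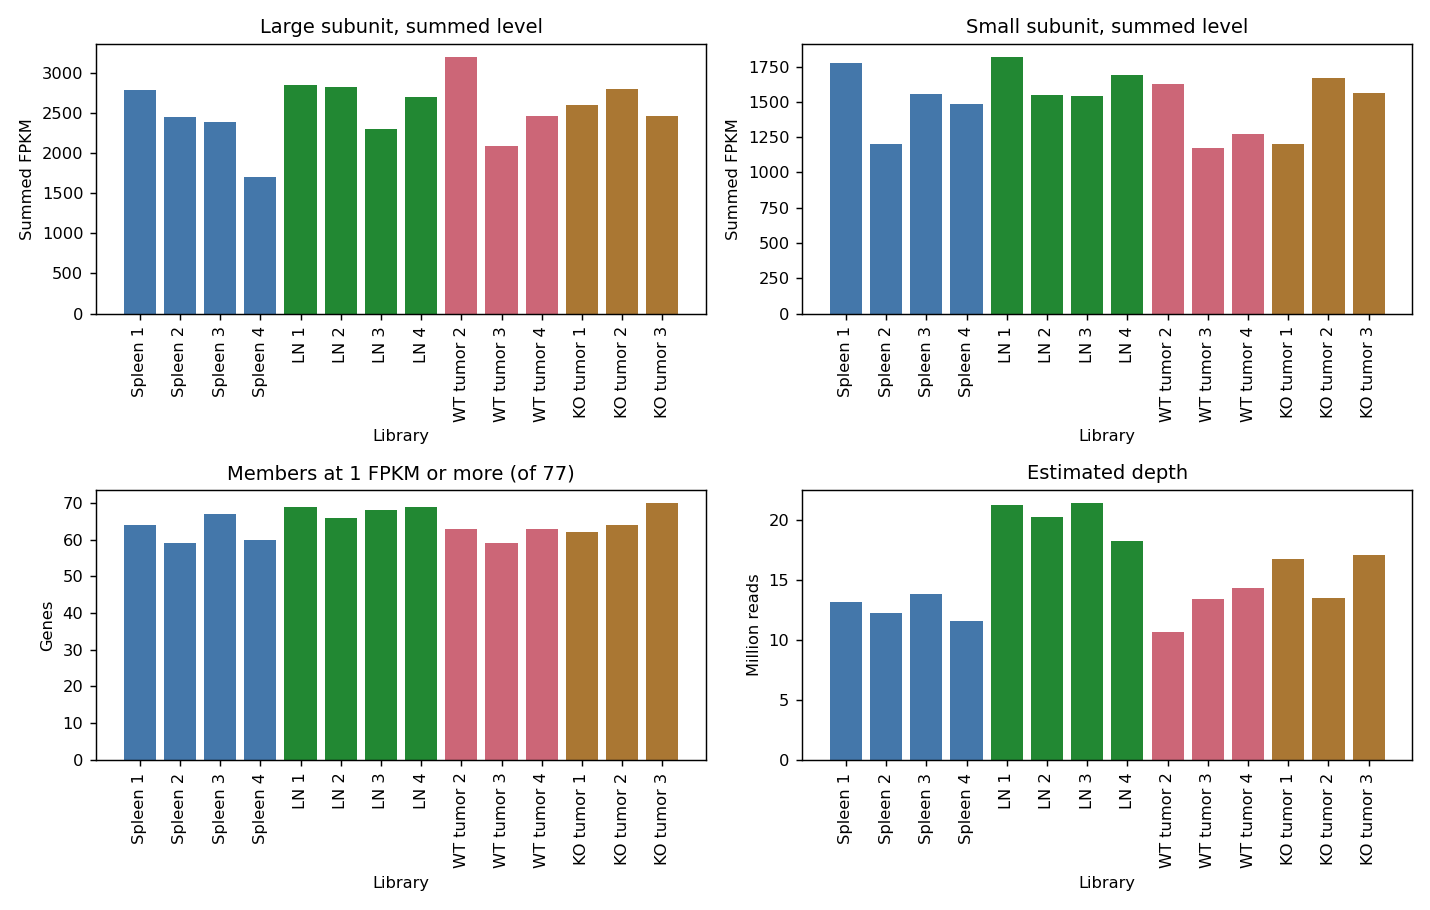
Summed FPKM of the large and of the small subunit, number of the 77 genes at 1 FPKM or more, and estimated depth in reads, 1 bar per library colored by group. The sums overlap between all groups, and the LN libraries have 66 to 69 genes detected.

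The number of genes detected was less even than the sums. At 1 FPKM or more stood 59 to 67 of the 77 genes in Spleen, 66 to 69 in LN, 59 to 63 in WT tumor and 62 to 70 in KO tumor. Over all rows of the tables the share at that level was 34.0 to 36.6% in Spleen, 36.4 to 37.3% in LN, 33.6 to 34.5% in WT tumor and 36.4 to 37.1% in KO tumor, so LN and KO tumor ran higher there too. LN was also the deepest group by the smallest depth that the values allow, and the part of depth was not tested.

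The region before each start site was read for the 5 genes that passed a test between groups in the comparisons that follow (Mrps15, Mrps18c, Mrps10, Mrpl40 and Mrpl37) and for the most abundant of each subunit, Mrpl52 and Mrps21, to show what kind of promoter these genes have. Sequences are from RefSeq on GRCm38.p6, whose table matched 68 of the 77 genes (74 windows). The windows reach from 250 bases before to 30 after the RefSeq start. For Mrps10, Mrpl40 and Mrps18c that start lies well downstream of the GENCODE start. The Mrps10 window and the printed Mrpl40 stretch therefore lie inside the GENCODE gene spans given below. The printed Mrps18c stretch ends just before its GENCODE start. Each is printed 5′ to 3′ on the strand of the gene, as the stretch that holds the motif matches and no more than 30 bases annotated as UTR of any gene, so Mrps18c, Mrpl40 and Mrpl37 are short. Capitals mark letters of a motif searched on both strands: the core of ETS-family sites CCGGAAG (read as CTTCCGG on the other strand), that of NRF1 (GCGC and TGCGC with 1 base of any kind between them) or that of SP1 (GGGGCGGGG).
Mrps15 (chr4:126046678-126046954, plus strand): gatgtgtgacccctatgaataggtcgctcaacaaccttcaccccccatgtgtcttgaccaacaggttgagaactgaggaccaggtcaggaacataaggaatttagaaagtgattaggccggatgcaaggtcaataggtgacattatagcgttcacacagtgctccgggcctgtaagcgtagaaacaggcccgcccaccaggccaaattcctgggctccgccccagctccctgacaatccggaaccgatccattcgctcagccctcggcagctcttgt
Mrps18c (chr5:100798569-100798626, plus strand): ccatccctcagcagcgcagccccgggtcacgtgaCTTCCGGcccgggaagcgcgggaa
Mrps10 (chr17:47368947-47369226, plus strand): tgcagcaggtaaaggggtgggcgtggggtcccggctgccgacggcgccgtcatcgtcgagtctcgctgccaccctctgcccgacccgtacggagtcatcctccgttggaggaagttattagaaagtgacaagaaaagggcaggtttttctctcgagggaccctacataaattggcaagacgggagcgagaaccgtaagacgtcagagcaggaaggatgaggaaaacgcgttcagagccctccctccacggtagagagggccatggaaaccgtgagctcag
Mrpl40 (chr16:18876664-18876693, minus strand): gcccGGGGCGGGGctgcgtcgGGGGCGGGG
Mrpl37 (chr4:107066869-107067017, minus strand): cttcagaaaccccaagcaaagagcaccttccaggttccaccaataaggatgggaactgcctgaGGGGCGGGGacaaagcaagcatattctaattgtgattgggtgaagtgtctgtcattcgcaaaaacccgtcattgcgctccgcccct
Mrpl52 (chr14:54426659-54426938, plus strand): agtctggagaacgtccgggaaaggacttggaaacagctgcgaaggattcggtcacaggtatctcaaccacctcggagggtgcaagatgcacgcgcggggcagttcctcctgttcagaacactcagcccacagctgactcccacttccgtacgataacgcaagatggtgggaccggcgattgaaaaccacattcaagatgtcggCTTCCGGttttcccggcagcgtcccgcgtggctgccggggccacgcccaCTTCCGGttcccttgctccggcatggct
Mrps21 (chr3:95871490-95871764, minus strand): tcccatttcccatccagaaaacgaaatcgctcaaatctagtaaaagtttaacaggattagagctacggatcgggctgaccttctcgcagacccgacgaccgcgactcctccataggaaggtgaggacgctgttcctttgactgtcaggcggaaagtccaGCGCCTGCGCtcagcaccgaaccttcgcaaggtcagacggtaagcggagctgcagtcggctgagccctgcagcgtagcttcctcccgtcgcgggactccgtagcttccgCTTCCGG

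ETS-family proteins such as GABP and the factor NRF1 are known activators of nuclear genes for mitochondria. Matches to the ETS letters lay in 23 of the 74 family windows (31.1%) and in 8.45% of all 32851 windows of the same length, and matches to the NRF1 letters in 13 (17.6%) and 4.41%. YY1 letters (AAGATGGCG) lay in 4 family windows (5.41%) and 1.05% of all, SP1 letters in 15 (20.3%) and 11.2%, and TATAAA in 5 (6.76%) and 13.1%. The windows of the family were also richer in G and C, with a median of 58.6% against 52.5%, and held a median of 20.5 CpG dinucleotides against 6. Windows of 1 gene share sequence and base composition enters these shares, so they are given as a description. Mrpl52 had ETS letters that began 47 bases before the start and 2 bases after its first base, and Mrps21 an NRF1 match 91 bases before its start. Of the genes lower in WT tumor, Mrps18c had ETS letters and Mrpl40 2 SP1 matches, while neither Mrps15 nor Mrps10 held any of the 5 motifs in its window. The printed Mrps10 window does not cover the bases before its GENCODE start.

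WT tumor against Spleen asks how Tregs inside the tumor differ from those of the spleen. A single ribosomal protein gene passed the test: Mrps15 (ENSMUSG00000028861, chr4:126046925-126055532, plus strand), which encodes a conserved protein of the small subunit platform, was lower in the tumor. Genes were called with limma on log2(FPKM + 1) at a Benjamini-Hochberg adjusted p under 0.05 over all tested genes, and every difference below is on that log2 scale, which understates changes of low genes. Mrps15 stood at 134, 149.7, 131 and 126 FPKM in Spleen and at 42.4, 3.18 and 22.9 in WT tumor libraries 2, 3 and 4. All 3 tumor values lay below all 4 spleen values. The difference was -3.06 ± 0.59 (log2, SE, adjusted p = 0.0180). It was called with each of the 7 libraries left out in turn (adjusted p of 0.00664 to 0.0435 over those fits), but not when no filter on low values was applied (0.0767) or when Spleen and WT tumor were fitted alone (0.0676). That is 1 of 76 genes tested (46 large subunit, 28 small subunit and both pseudogenes), 0 of 46 of the large and 1 of 28 of the small subunit, against 1.9% of all 9616 tested genes. Of all tested genes 0.707% were called lower and 1.2% higher.

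Genes are called wholly lower or higher where every library of 1 group lay below or above every library of the other. Mrps15 alone, 1 of 76, was wholly lower in WT tumor than in Spleen, where 5.8% of all tested genes were, and 0 wholly higher, where 5.73% were. At an unadjusted p under 0.05 stood 14 of the 76, against 14.3% of all tested genes. The median difference was -0.07 over the family and -0.07 over all tested genes (-0.07 for the large and -0.05 for the small subunit). Leaving out Spleen 4 added Mrpl24 (adjusted p = 0.0365), and leaving out WT tumor 4 added Mrpl12 (0.0446).

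Against LN, 4 ribosomal protein genes were lower in WT tumor and none higher: Mrps18c, Mrps15 and Mrps10 of the small subunit and Mrpl40 of the large. They are 4 of 76 genes tested, with 3.04% of all 9616 tested genes called and 1.14% called lower. By subunit they are 1 of 46 large and 3 of 28 small subunit genes, a split that was not tested. This comparison shares its 3 tumor libraries with the one against Spleen. The count fell to 1, 1, 2 and 1 without LN 1, 2, 3 and 4 and to 1 without WT tumor 3.

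Mrps18c (ENSMUSG00000016833, chr5:100798627-100804471, plus strand) is 1 of 3 related genes (with Mrps18a and Mrps18b) that descend from a single bacterial ribosomal protein gene. Its LN libraries had 149, 154, 168 and 124 FPKM and its WT tumor libraries 66.4, 32.4 and 41.6, with no overlap. The difference was -1.70 ± 0.33 (adjusted p = 0.0111), and without WT tumor 3 it was no longer called (0.0557). Spleen lay between, at 135, 104, 65.4 and 78.5 FPKM, and overlapped WT tumor by 1 library. Its relatives did not pass the test where they were tested (Mrps18a in all 6 comparisons, Mrps18b in the 3 with KO tumor). Mrps18a ran from 1.57 to 164 FPKM over the libraries, and Mrps18b from 0 to 15.6.

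For Mrps15 the LN values were 122, 81.0, 112 and 77.8 FPKM, again all above the 3 WT tumor values given above. The difference from LN was -2.58 ± 0.59 (adjusted p = 0.0295). This call rested on every LN library: without LN 1, 2, 3 or 4 the adjusted p was 0.0811, 0.0638, 0.0799 and 0.0535. It was also lost with no filter (0.102) and with the compared groups alone (0.0719).

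Mrps10 (ENSMUSG00000034729, chr17:47368887-47381417, plus strand), a gene for a conserved protein of the small subunit head, was listed at 0 in WT tumor 2, and WT tumor 3 and 4 had 0.0629 and 2.46 FPKM. The LN libraries had 94.0, 14.7, 8.02 and 20.4 FPKM, with LN 1 far above the rest. The groups did not overlap, and the difference was -3.91 ± 0.93 (adjusted p = 0.0377). The call was lost without LN 1 (0.106), LN 2 (0.0734), LN 4 (0.0808), WT tumor 2 (0.128) or WT tumor 3 (0.128), with no filter (0.108) and with library weights (0.0548).

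Mrpl40 (ENSMUSG00000022706, chr16:18872018-18876862, minus strand) encodes a large subunit protein not found in bacterial ribosomes. Its LN values were 67.5, 37.1, 65.9 and 70.6 FPKM and its WT tumor values 32.6, 3.68 and 6.23, so the groups were parted by the small gap between LN 2 and WT tumor 2. The difference was -2.51 ± 0.63 (adjusted p = 0.0478), just inside the threshold. It was lost without LN 1, 2, 3 or 4 (0.114, 0.0697, 0.114 and 0.115), without WT tumor 3 or 4 (0.176 and 0.134), with no filter (0.119) and with the compared groups alone (0.0655).

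The called genes were among 12 of the 76 that lay wholly lower in WT tumor than in LN, where 8.95% of all tested genes did, and 1 wholly higher, where 8.02% did. By subunit, 6 of 46 large and 6 of 28 small subunit genes lay wholly lower. The gene wholly higher was Mrpl16, whose product lies near the peptidyl transferase center. Its values were 54.4, 70.7 and 64.9 FPKM in the WT tumor libraries and 46.8, 19.9, 22.5 and 40.8 FPKM in those of LN. Its difference of 1.02 ± 0.63 did not pass the test (adjusted p = 0.469). Among those wholly lower, Mrpl55, for a mitochondria-specific large subunit protein, had 57.1, 16.2, 24.2 and 37.5 FPKM in LN and 0, 8.33 and 0.608 in WT tumor. Its difference of -3.67 ± 1.19 was not called (adjusted p = 0.134), although it was with only these groups fitted (0.0342). Leaving out WT tumor 4 called Mrpl47 as lower (0.0160). Its protein sits at the exit of the peptide tunnel. At an unadjusted p under 0.05 stood 11 of 76, against 15.6% of all tested genes.

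The median difference from LN was -0.41 over the family, with 51 of 76 genes below 0, beside -0.12 over all tested genes, with 55.6% below 0. It was -0.40 for the large and -0.52 for the small subunit. In this comparison the sums of the CD8 T or NK cell markers did not overlap (0.110 to 5.54 FPKM in LN and 21.5 to 63.2 in WT tumor). Cd8b1 made up most of these sums, at 14.3, 43.8 and 62.6 FPKM in WT tumor and 0.110 to 5.46 in LN. Klrb1c was at 7.15, 0.0283 and 0.0264 FPKM in WT tumor and at 0 in LN. Cd8a overlapped (0.0892, 1.57 and 0.554 FPKM against 0 to 0.475), as did Eomes and Gzmk, and Ncr1 was listed at 0 in both groups. Macrophage markers summed to 4.04 to 36.1 in LN and 1.18 to 107 FPKM in WT tumor, and erythroid markers were higher in WT tumor 3 and 4 than in any LN library. The alpha-globin gene Hba-a1 was at 33.9, 2468 and 2601 FPKM in WT tumor 2, 3 and 4. WT tumor 2 had the highest values of its group for Mrps15, Mrps18c and Mrpl40 and the lowest for Mrps10, and the macrophage marker Fcer1g was at 78.0, 2.39 and 0.185 FPKM in the same libraries. The part of these markers in the calls was not tested. The plot of differences shows the family spread to both sides of the all-gene median in each comparison.

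**Figure D3:**
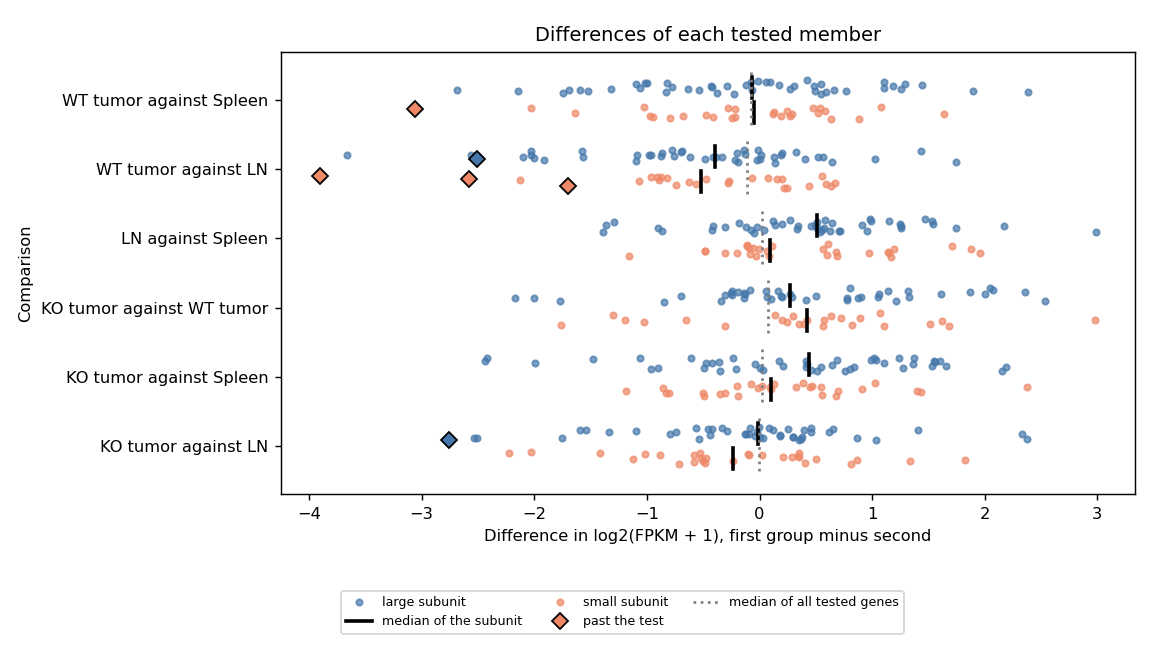
Difference in log2(FPKM + 1) of each tested gene of the large (blue) and small (orange) subunit in the 6 comparisons, first group minus second. Black bars are the medians of each subunit, dotted lines those of all tested genes, and diamonds mark genes past the test: 1 against Spleen, 4 against LN and 1 for KO tumor against LN, all below 0.

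LN against Spleen compares Tregs of both lymphoid organs. No ribosomal protein gene passed the test: limma called 0 of 76, where 0.499% of all 9616 tested genes were (0.354% lower and 0.146% higher). At an unadjusted p under 0.05 stood 8 of 76, against 10.4% of all tested genes. Wholly higher in LN were 2 genes, where 3.87% of all tested genes were, and wholly lower 1, where 4% were. Mrpl47, of the tunnel exit, was at 11.3, 13.3, 7.56 and 26.6 FPKM in LN and at 6.94, 4.93, 2.39 and 2.62 in Spleen, a difference of 1.54 ± 0.74 that did not pass the test (adjusted p = 0.492). The other gene above, named after its values were seen, was Mrpl17, with means of 4.68 FPKM in LN and 0.781 in Spleen (adjusted p = 0.353). Mrps15 was the one below, with a difference of -0.48 ± 0.55 (adjusted p = 0.842), its highest LN value of 122 FPKM lying just under its lowest spleen value of 126. The median difference was 0.48 over the family (0.51 large, 0.10 small subunit) and 0.02 over all tested genes. LN libraries were also the deeper ones by the smallest depth the values allow, and Spleen libraries held the macrophage markers, so the medians stand beside a difference in both. Their part was not tested.

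KO tumor against WT tumor compares intratumoral Tregs of the strains with and without the floxed CD36 allele. These strains also differ in how the Cre allele is written. No ribosomal protein gene passed the test in the 6 tumor libraries: limma called 0 of 70, where 0.28% of all 8210 tested genes were called. At an unadjusted p under 0.05 stood 10 of 70, against 8.64% of all tested genes. Wholly higher in KO tumor were 7 genes, where 7.54% of all tested genes were, and wholly lower 3, where 6.93% were. The median difference was 0.33 over the family (0.27 large, 0.43 small subunit), with 48 of 70 above 0, and 0.07 over all tested genes.

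The gene furthest apart was again Mrps15, at 141, 177 and 83.7 FPKM in KO tumor and 42.4, 3.18 and 22.9 in WT tumor. The groups did not overlap, and the difference of 2.98 ± 0.79 missed the threshold (adjusted p = 0.277, 0.181 to 0.714 over the fits without 1 library), but passed it when all 14 libraries were fitted together (0.0305). KO tumor 1 lay within the range of Spleen, KO tumor 2 above it and KO tumor 3 within the range of LN. Against Spleen and LN the KO tumor differences were -0.08 ± 0.56 and 0.40 ± 0.56 (adjusted p = 0.977 and 0.859). Mrpl40 was next, at 42.0, 67.7 and 74.6 FPKM in KO tumor, each above the 3.68 to 32.6 of WT tumor. Its difference of 2.54 ± 0.74 did not pass (adjusted p = 0.328).

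Both genes were called low in WT tumor against LN from the same 3 WT tumor libraries, so the comparisons are not independent. In the other direction lay Mrpl37 and Mrpl16. Mrpl37 (ENSMUSG00000028622, chr4:107055874-107066868, minus strand) encodes a mitochondria-specific large subunit protein related to that of Mrps30, and stood at 3.62, 2.51 and 8.20 FPKM in KO tumor and at 23.0, 40.0 and 8.75 in WT tumor, a difference of -2.002 ± 0.741 (adjusted p = 0.474). Mrpl16 stood at 34.5, 14.9 and 10.7 FPKM in KO tumor, below its 54.4 to 70.7 in WT tumor, a difference of -1.77 ± 0.52 (adjusted p = 0.330). The third gene wholly lower, named after its values were seen, was Mrps30. In the same comparison macrophage marker sums were 306 to 415 FPKM in KO tumor and 1.18 to 107 in WT tumor. Foxp3 was at 25.7 to 42.4 and 3.54 to 11.97 FPKM, without overlap. Hba-a1 was at 3156, 5778 and 15.2 FPKM in KO tumor 1, 2 and 3, where Mrps15 was at 141, 177 and 83.7. In WT tumor 2, 3 and 4 Hba-a1 was at 33.9, 2468 and 2601 FPKM, and Mrps15 at 42.4, 3.18 and 22.9. The part of any of these in the differences was not tested.

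Against LN, KO tumor had 1 gene called of 77, Mrpl37, where 3.42% of all 10147 tested genes were called, 1.31% lower and 2.11% higher. Its LN values were 15.3, 18.5, 59.6 and 85.9 FPKM, all above the highest KO tumor value of 8.20. The difference was -2.76 ± 0.71 (adjusted p = 0.0424), and it was lost without LN 3 (0.129), LN 4 (0.139), KO tumor 1 (0.145), KO tumor 2 (0.182) or KO tumor 3 (0.0544) and with no filter (0.107). Against Spleen (13.3, 72.4, 23.6 and 24.5 FPKM) Mrpl37 also lay wholly lower, with a difference of -2.42 ± 0.71 that did not pass the test (adjusted p = 0.0906). Both comparisons use the same KO tumor libraries. Wholly lower than in LN were 3 genes of 77, where 8.06% of all tested genes were, and wholly higher 2, where 8.83% were. At an unadjusted p under 0.05 stood 9 of 77, against 13.1% of all tested genes. Mrps18c lay below LN at 43.6, 101 and 116 FPKM, a difference of -0.88 ± 0.37 that did not pass (adjusted p = 0.296). Mrpl54 lay above it at 206, 205 and 268 FPKM against 152, 110.4, 41.2 and 70.8, a difference of 1.41 ± 0.62 that did not pass either (adjusted p = 0.323). The others, named after their values were seen, were Mrpl27 below LN and Mrpl9 above it.

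In KO tumor against Spleen, limma called 0 of 77 genes, where 2.8% of all 10147 tested genes were called (1.16% lower and 1.64% higher), and 8 of 77 stood at an unadjusted p under 0.05, against 13.9%. Wholly lower were 3 genes, where 6.4% of all tested genes were, and wholly higher 2, where 7.05% were. They were Mrpl37, Mrpl12 and Mrpl15 below Spleen and Mrpl35 and the pseudogene Mrps36-ps1 above it, with Mrpl15 named after its values were seen. The largest difference was that of Mrpl12, whose product forms the stalk that binds translation factors and also binds the mitochondrial RNA polymerase. It stood at 106, 49.3, 47.9 and 50.6 FPKM in Spleen and at 9.87, 2.97 and 31.6 in KO tumor. The difference was -2.44 ± 0.73 (adjusted p = 0.0960, and 0.0437 without KO tumor 3). Without KO tumor 1, Mrps18b was called as higher in KO tumor (0.0425). The library left out is the one in which it was listed at 0. KO tumor 2 and 3 had 15.6 and 7.83 FPKM of it, and Spleen 0, 0.0753, 0 and 0. Mrpl35 was wholly higher, at 23.9, 18.03 and 8.00 FPKM against 7.45, 6.25, 0.701 and 0.515, a difference of 2.19 ± 0.98 that did not pass (adjusted p = 0.324). For Mrps36-ps1 the difference was 1.12 ± 0.86 (adjusted p = 0.627). The median differences of the family were 0.39 from Spleen and -0.08 from LN, beside 0.02 and -0.01 over all tested genes.

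**Figure D4:**
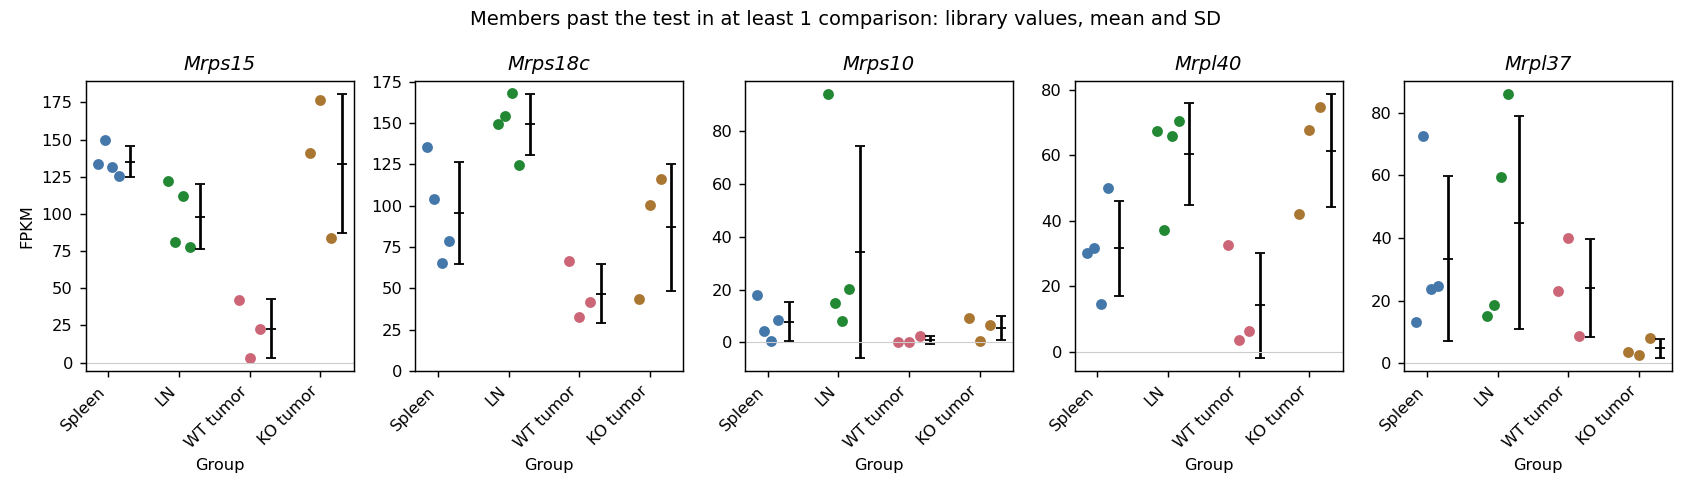
FPKM of the 5 genes past the test in at least 1 comparison, 1 point per library, with mean and SD of each group beside them. WT tumor is the low group for Mrps15, Mrps18c, Mrps10 and Mrpl40, and KO tumor for Mrpl37.

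Many of these genes start back to back with another gene. A protein-coding neighbour on the opposite strand began within 1000 bases upstream for 18 of the 77 (23.4%), and for 7.17% of all 18978 protein-coding genes in the tables. The start of Helq, a DNA helicase gene, lay 29 bases from that of Mrps18c, that of the histone chaperone gene Hira 175 bases from Mrpl40, and that of Cyb5rl 120 bases from Mrpl37. In each group the mean levels of these neighbours were below those of the ribosomal protein genes beside them. In WT tumor 3, Hira (7.28 FPKM) stood above Mrpl40 (3.68). Helq averaged 0.252 FPKM in Spleen, 0.873 in LN, 2.63 in WT tumor and 1.14 in KO tumor, and Hira 4.43, 4.50, 2.82 and 0.579. Neither passed the test where it was tested (2 comparisons for Helq, 6 for Hira), and Cyb5rl was too low to be tested in any. Other neighbours, named after their values were seen, stood higher. Fau, beside Mrpl49, averaged 5233 FPKM in Spleen, where Mrpl49 averaged 12.9. Psma2, beside Mrpl32, was the only neighbour called in any comparison, higher in LN than in Spleen by 1.65 (adjusted p = 0.0461).

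Replicates of a group differed more in this family than in genes at large. The median SD within groups was 1.07 log2 units over the 75 genes that passed the filter on low values in the fit of all 14 libraries, and 0.88 over all 10147 tested genes. It was wider in the family in each range of levels. At a mean of 1 to 10 FPKM the medians were 1.16 (21 genes of the family) and 0.999 (all genes). At a mean of 10 to 50 FPKM they were 1.26 (33 genes) and 0.86, at 50 to 200 FPKM 0.71 (16 genes) and 0.55, and over 200 FPKM 0.48 (4 genes) and 0.27. The genes of the family have shorter transcripts than others at these levels (a median longest transcript of 2431 against 2918 bases at 10 to 50 FPKM). Across the 75 genes, the SD and the longest transcript had a Spearman rho of -0.06, and the mean level and the longest transcript 1 of -0.32. The part of length at a given level was not tested. The SD was lower at higher mean level (Spearman rho = -0.43, and -0.29 over all tested genes), a relation across genes of the same libraries.

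Single libraries often had a gene listed near 0 that its replicates had well above it. Of the genes that reached 10 FPKM in at least 1 library of a group, the lowest library was under 1 FPKM for 16 of 62 in Spleen (25.8%), 6 of 65 in LN (9.23%), 5 of 55 in WT tumor (9.09%) and 12 of 65 in KO tumor (18.5%). Over all genes the shares were 24.1, 13.3, 19.8 and 13.2%. The family's share was above that of all genes in KO tumor and below it in WT tumor, with no test of either. Mrps28, a small subunit gene named here after its values were seen, had the widest spread of the family: 34.2 FPKM in Spleen 3, 19.2 and 49.6 in LN 2 and 4 and 50.3 in WT tumor 3, and under 1 FPKM in the other 10 libraries. Mrpl41, also named for its values, stood at 163 and 89.9 FPKM in Spleen 1 and 2 and at 0.654 and 0.224 in Spleen 3 and 4. For Mrps28, which has 1 annotated transcript, 0 reads allow a level of up to 0.179 to 0.359 FPKM in a library (3 reads at the smallest depth the values allow), a limit that covers counting error only.

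**Figure D5:**
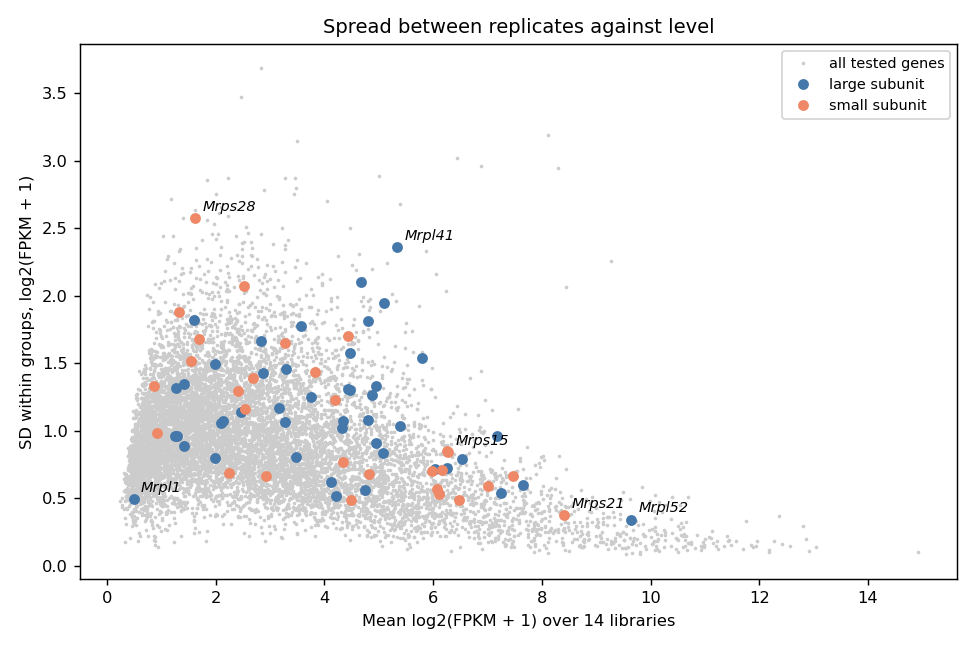
SD within groups against mean log2(FPKM + 1) over the 14 libraries, for the 75 genes of the large (blue) and small (orange) subunit that passed the filter and for all 10147 tested genes (grey). Mrps28 (2.58) and Mrpl41 (2.36) have the widest spread of the family and Mrpl52 (0.34) the narrowest.

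No gene of the wider mitochondrial translation machinery passed the test. Across 6 lists (other mitoribosome proteins, ribosome assembly and rRNA modification, translation factors, mitochondrial aminoacyl-tRNA synthetases, mitochondrial transcription and RNA stability, and regulators of nuclear genes for mitochondria) limma called 0 of the 59 to 82 genes tested in each of the 6 comparisons. At an unadjusted p under 0.05 stood 12 of 80 in WT tumor against Spleen, 9 of 80 in WT tumor against LN, 4 of 80 in LN against Spleen, 8 of 59 in KO tumor against WT tumor, 6 of 82 in KO tumor against Spleen and 8 of 82 in KO tumor against LN. The shares of all tested genes at that p, in the same order, were 14.3, 15.6, 10.4, 8.64, 13.9 and 13.1%. Of 30 listed assembly and rRNA modification genes, 26 were tested against LN, with a median difference of -0.45 in WT tumor. For 20 aminoacyl-tRNA synthetase genes, which charge mitochondrial transfer RNAs, 19 were tested there, with a median of -0.65. The other lists had medians there of -0.17 (other mitoribosome proteins), -0.22 (translation factors), -0.47 (transcription and RNA stability) and 0.10 (regulators). The median over all tested genes was -0.12.

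The ribosomal RNAs of the mitochondrial ribosome did move. The 12S gene mt-Rnr1 stood at 3819, 4461, 4005 and 4377 FPKM in Spleen, at 3395, 3168, 3345 and 3255 in LN, at 6699, 7995 and 8159 in WT tumor and at 5390.2, 4872 and 5318 in KO tumor. None of the 4 groups overlapped another, in the order LN, Spleen, KO tumor and WT tumor. The differences of LN and of KO tumor from Spleen did not pass the test. Of all tested genes, 4% were wholly lower in LN than in Spleen, and 7.05% wholly higher in KO tumor than in Spleen. WT tumor was higher than Spleen by 0.87 ± 0.09 (adjusted p = 0.000405) and than LN by 1.21 ± 0.09 (8.69e-06). The difference of KO tumor from WT tumor was -0.55 ± 0.10 and did not pass (0.109), and that from LN was 0.66 ± 0.09 and did (0.000367).

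The 16S gene mt-Rnr2 stood at 30678, 33546, 27968 and 34822 FPKM in Spleen, at 23396, 23242, 23250.3 and 22484 in LN, at 42394, 44045 and 41901 in WT tumor and at 34635, 30631 and 29332 in KO tumor. WT tumor lay above every other library and LN below, while KO tumor and Spleen overlapped and their difference did not pass the test. It was higher in WT tumor than in Spleen by 0.43 ± 0.06 (adjusted p = 0.00352) and than in LN by 0.89 ± 0.06 (6.47e-06), and lower in LN than in Spleen by 0.45 ± 0.06 (0.00544). KO tumor was lower than WT tumor by 0.44 ± 0.07 (adjusted p = 0.0397). That last call was lost without WT tumor 2, 3 or 4 (0.135, 0.132 and 0.0954), without KO tumor 2 or 3 (0.243 and 0.212), with a pseudocount of 0.1 (0.0550), with no filter (0.298) and with scaling to the protein-coding total (0.0575). Smart-Seq2 primes on poly(A), and how fully it captures ribosomal RNA in each library was not tested. Against LN, KO tumor was higher by 0.45 ± 0.07 (adjusted p = 0.00126). Reads of nuclear copies of mitochondrial DNA may share in both values.

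In WT tumor Tregs both ribosomal RNAs were thus higher than in Spleen and LN, while the ribosomal protein genes that were called (1 against Spleen, 4 against LN) were lower and the others did not pass. Of 13 mitochondrial messenger RNAs, which the ribosome translates, 9 were tested. Against Spleen, WT tumor had mt-Co1 higher and mt-Nd6 lower (0.67 ± 0.12 and -1.10 ± 0.16, adjusted p = 0.0135 and 0.00273), and against LN mt-Nd2 and mt-Nd6 lower (-0.72 ± 0.18 and -1.52 ± 0.16, adjusted p = 0.0489 and 0.000105). These encode a subunit of cytochrome c oxidase (mt-Co1) and subunits of respiratory complex I. The mt-Co1 call was lost without WT tumor 2 (0.0600) and with Spleen and WT tumor alone (0.0603). That of mt-Nd2 was lost without LN 2, 3 or 4 (0.119, 0.0903 and 0.126), without WT tumor 2, 3 or 4 (0.153, 0.123 and 0.0539), with no filter (0.0956) and with library weights (0.0635). The mt-Nd6 gene, on the strand opposite to the other genes for messenger RNAs, had 2153, 1759, 1513 and 1552 FPKM in Spleen, 2239, 2382, 2054 and 2608 in LN, 986, 725 and 726 in WT tumor and 1662, 1184 and 1166 in KO tumor. Without strand in the counting, its reads and antisense reads cannot be told apart. Its WT tumor calls held under the alternatives run, at an adjusted p of at most 0.0223 against Spleen and 0.00146 against LN. In KO tumor against LN, mt-Nd2, mt-Nd3 and mt-Nd6 were lower (-0.99 ± 0.17, -0.99 ± 0.22 and -0.81 ± 0.16, adjusted p = 0.00368, 0.0158 and 0.00962). Of these, mt-Nd3 was lost without LN 4 (0.0532), KO tumor 2 (0.0658) or KO tumor 3 (0.0663), and mt-Nd6 without KO tumor 2 (0.0650) or 3 (0.0584). In LN against Spleen, mt-Co1 was higher by 0.66 ± 0.11 (adjusted p = 0.0267), a call lost without Spleen 2, 3 or 4 (0.0608, 0.0518 and 0.0640) or LN 1, 2, 3 or 4 (0.0511, 0.0683, 0.0725 and 0.0692).

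The pseudogene rows cannot be read as separate genes. Mrpl23-ps1, on chromosome 2, was listed at 7.65 to 16.0 times the FPKM of Mrpl23 in the 14 libraries, and Mrps36-ps1, on chromosome 17, at 1.45 to 6.48 times that of Mrps36. Both are processed copies, so reads of parent and copy may have been shared between them and the values of all 4 rows are uncertain. A further 21 protein-coding genes of the family overlap an exon of another gene in the tables, by a median of 9.39% of their own exon length, and the counting is not stated to use strand. None of the 5 called genes is among these 21.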

How the data were processed

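Tregs were profiled by Smart-Seq2 in 14 libraries, and each library has a table of FPKM values per gene. The FPKM were made by the authors with Trimmomatic, TopHat2 2.1.1, Bowtie2 2.2.9 and Cufflinks 2.2.1 on mm10 (GRCm38), per the submitters' processing notes, which also name Cuffdiff and DESeq2. FPKM are scaled to depth and transcript length and are not counts, so no count model was used. Whether counting used strand is not given in the sources used here.

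Depth was estimated from the steps between low values of single-transcript genes. In each library 92.8 to 96.6% of these came out whole within 0.1 of a read. The smallest depth that gives this was taken, so a multiple of it cannot be told apart. The estimates entered no test.

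Differences were tested with limma 3.58.1 (R 4.3.3, robust, with a mean-variance trend) on log2(FPKM + 1). Genes needed at least 1 FPKM in at least 3 libraries of the fit. P-values were Benjamini-Hochberg adjusted over all tested genes and called under 0.05. Spleen, LN and WT tumor shared 1 fit (11 libraries), KO against WT tumor used the 6 tumor libraries, and KO tumor against Spleen or LN used all 14. The steps were tested on simulated data. Tables were handled with Python 3.11.15 (numpy 2.4.6, pandas 2.3.3).

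Alternatives were a pseudocount of 0.1, no filter, a mean of at least 5 FPKM, scaling to the protein-coding total, quantile normalization, library weights, a replicate block, the compared groups alone, all libraries in 1 fit and leaving out each library. The genes named are those called (at most 10 a comparison), the 4 highest and 2 lowest of each subunit, per comparison and direction the 2 with the largest difference among non-overlapping genes at 10 FPKM or more in the higher group, up to 4 called genes of each list, and Foxp3 and Cd36. Other genes named are said to be chosen after their values were seen or illustrate an alternative. The genes of the family and the lists were chosen with earlier results of these data known.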

Additional observations from a re-analysis of the deposited data

Results flagged for a closer look

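In groups of 4 libraries, a highest or lowest value that lies far from the rest by Dixon's test was looked for in 48 sets of values, and 6 were found. Chance alone gives about 1 in 20 for normally distributed values, a rate that need not hold for these FPKM. Mrps10 stood at 94.0 FPKM in LN 1, with 8.02 to 20.4 in the other LN libraries. Mrpl40 stood at 37.1 FPKM in LN 2, with 65.9 to 70.6 in the others. Both groups enter the calls against WT tumor, which were lost without the library concerned. In Spleen 1, Mrpl12 stood at 106 FPKM (others 47.9 to 50.6) and Mrps21 at 578 FPKM (others 264 to 316). Mrps18b was listed at 0 in all but 1 library of each lymphoid group, with 0.0753 FPKM in Spleen 2 and 3.92 FPKM in LN 3. With all others at 0, any value above 0 is flagged.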

How the results depend on the processing

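Counts of ribosomal protein genes called moved with several settings. WT tumor against Spleen (1 called) gave 0 with no filter on low values, 0 with the compared groups alone and 1 to 2 without single libraries. WT tumor against LN (4) gave 1 with no filter and 1 to 4 without single libraries. KO against WT tumor (0) gave 1 with all 14 libraries in 1 fit and 0 without single libraries, LN against Spleen 0 throughout the latter. KO tumor against Spleen (0) gave 0 to 1, and KO tumor against LN (1) 0 with no filter and 0 to 1 without single libraries. Medians of the large subunit without single libraries were -0.27 to -0.02 (WT tumor against Spleen), -0.69 to -0.17 (WT tumor against LN), 0.28 to 0.66 (LN against Spleen) and 0.09 to 0.56 (KO against WT tumor). The small subunit median of WT tumor against Spleen crossed 0 (-0.27 to 0.14), as did those of KO tumor against Spleen (-0.05 to 0.43) and, for the large subunit, KO tumor against LN (-0.15 to 0.11). Of the named genes' other values, 72 lost the threshold under an alternative, 3 gained it and 0 reversed. The 72 include mt-Rnr2 under quantile normalization, which has no direction there, and the rest kept their direction. Replicate numbers gave no sign of pairing: deviations of same-numbered libraries correlated at -0.028 to 0.030 and others at -0.033 to 0.030. A weak pairing could be hidden by the spread between libraries, so this check does not exclude it. A replicate block gave 0 genes called against Spleen (Mrps15, 0.0501), 2 against LN (Mrps15, adjusted p = 0.0716, and Mrpl40, 0.0992, lost) and added Mrpl43 for KO tumor against LN (0.0234), where Mrpl37 was lost (0.0646). It also lost mt-Co1 in WT tumor against Spleen (0.0674) and LN against Spleen (0.0878), and mt-Nd2 in WT tumor against LN (0.104).

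Over all genes, 183 calls in WT tumor against Spleen became 112 with no filter, 107 with library weights, 89 with the block, 87 with the groups alone and 82 to 173 without single libraries. For WT tumor against LN, 292 became 186 with the block and 183 to 268, for LN against Spleen 48 became 16 with no filter, 20 with the block and 13 to 35. For KO against WT tumor 23 became 0 with no filter, 6 with the block, 60 with all libraries and 9 to 15, for KO tumor against Spleen 284 became 185 with the groups alone and 158 to 269, and for KO tumor against LN 347 became 203 to 267. Quantile normalization moved the all-gene median of WT tumor against LN from -0.12 to -0.01, other scalings less than 0.1. It makes the top gene equal in all libraries, so mt-Rnr2 has no value there. Low genes are limited by 3 or 4 libraries and by depth.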
